A study of Mus musculus with 32 samples.

Results

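Padi1, Padi2, Padi3 and Padi4 encode peptidylarginine deiminases. Every probe annotated to exactly 1 of these 4 symbols was taken, which gave 6 of the 45018 probes on the array: 1 each for Padi1, Padi2 and Padi3, and 3 for Padi4. All 6 passed the filter on low values, and the 4 genes were tested among 17145 genes. The RNA was from whole uteri taken at postnatal day 5 from female mice of the CD-1 strain, and each of the 32 samples was run on an Agilent array of its own with 1 dye. The 8 groups of 4 samples, which the series design calls biological replicates, were Esr1 cKO and Esr1 wild type (WT) treated with diethylstilbestrol (DES), Esr1 cKO and WT given vehicle, Foxa2 cKO and WT treated with DES, and Foxo1 cKO and WT treated with DES. The Foxa2 and Foxo1 lines have no vehicle group here. The dose and timing of DES, the Cre line behind each conditional knockout (cKO), and the litters were not stated by any source used, so p-values measure the spread between these samples.

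Peptidylarginine deiminases (PADs) are calcium-dependent enzymes that convert arginine residues of proteins to citrulline, which removes a positive charge and can alter folding and binding. PAD1 and PAD3 are known for modifying keratin-associated proteins in epidermis and hair follicle, PAD2 for its wide distribution and for citrullinating myelin basic protein, and PAD4 for acting on histones, above all in neutrophils. DES is a synthetic estrogen that acts through estrogen receptors. The receptor known as estrogen receptor alpha is the product of Esr1. FOXA2 and FOXO1 are forkhead proteins that bind DNA, and FOXA2 is a marker of uterine glands.

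The level of a gene below is the log2 intensity of its probe minus the 75th percentile of log2 intensity on that array, so 0 is the level of that percentile. Levels of different probes are on different scales and are not set against each other. The 75th percentile of intensity was 697 to 1787 on 30 arrays, 551 on Esr1 WT vehicle replicate 4 and 9024 on Foxa2 WT DES replicate 1. The vehicle array also stood apart at Xist, the X inactivation transcript, with a level of -2.35 against 3.56 to 4.02 on the other Esr1 WT vehicle arrays. Results that rest on these 2 arrays are given without them where that changes a call or moves a called value by over 1.5 times. After DES the targeted genes followed the labels. Esr1 averaged 0.27 ± 0.15 in Esr1 cKO against 2.23 ± 0.10 in WT after DES, Foxa2 -0.11 ± 0.31 in Foxa2 cKO against 2.87 ± 0.95 in WT, and Foxo1 1.23 ± 0.11 in Foxo1 cKO against 3.87 ± 0.17 in WT (level, SD, n = 4). After vehicle Esr1 averaged 2.55 ± 0.18 in Esr1 cKO and 3.29 ± 0.80 in WT, with overlapping arrays.

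The 4 genes lie next to each other on mouse chromosome 4, with Padi6, an oocyte-expressed member of the family, at the end of the row. In the RefSeq order of assembly GRCm38.p6 the row runs Padi6, Padi4, Padi3, Padi1, Padi2. The 250 bases before each annotated start are shown because the 4 genes changed together in the comparisons that follow; capitals mark matches to any of the 7 short motifs searched on both strands.
Padi1: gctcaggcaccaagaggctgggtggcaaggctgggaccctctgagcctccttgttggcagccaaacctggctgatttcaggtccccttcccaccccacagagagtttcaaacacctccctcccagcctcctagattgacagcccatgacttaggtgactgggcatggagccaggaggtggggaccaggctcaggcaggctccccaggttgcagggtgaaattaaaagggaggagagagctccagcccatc
Padi2: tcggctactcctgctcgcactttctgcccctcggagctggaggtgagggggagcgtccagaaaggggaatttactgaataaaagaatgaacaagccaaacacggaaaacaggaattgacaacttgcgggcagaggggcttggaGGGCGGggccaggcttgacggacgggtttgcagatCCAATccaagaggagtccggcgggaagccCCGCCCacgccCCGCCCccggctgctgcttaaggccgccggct
Padi3: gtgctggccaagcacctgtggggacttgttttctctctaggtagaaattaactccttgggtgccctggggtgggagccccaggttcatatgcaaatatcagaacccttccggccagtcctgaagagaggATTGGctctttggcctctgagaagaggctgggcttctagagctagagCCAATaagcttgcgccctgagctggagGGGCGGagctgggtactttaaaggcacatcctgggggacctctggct
Padi4: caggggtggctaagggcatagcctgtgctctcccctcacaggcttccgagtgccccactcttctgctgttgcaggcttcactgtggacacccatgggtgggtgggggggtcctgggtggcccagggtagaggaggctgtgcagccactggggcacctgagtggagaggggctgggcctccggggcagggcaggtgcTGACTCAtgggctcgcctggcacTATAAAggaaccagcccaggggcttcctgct
In GRCm38.p6 these windows are chr4:140845779-140846028 on the minus strand for Padi1, chr4:140906110-140906359 on the plus strand for Padi2, chr4:140810649-140810898 on the minus strand for Padi3 and chr4:140774204-140774453 on the minus strand for Padi4, all from RefSeq and written 5′ to 3′ on the strand of the gene.

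The palindromic estrogen response element, GGTCA and TGACC with 3 bases between them and present in 0.0639% of 32851 RefSeq windows of this length, had no match in the 4 windows, nor did its 5-letter arm GGTCA, present in 35.2%. The forkhead letters TNTTTAC, present in 10.9%, had no match either. The Padi4 window held the AP-1 letters TGANTCA as TGACTCA 54 bases before the start, which 6.75% of windows hold, and TATAAA 31 bases before it, which 12.4% hold. The Padi2 window held GGGCGG, the core of an Sp1 site present in 32.7% of windows, on the gene's strand 107 bases before the start and on the other strand at 43 and 32 bases, together with CCAAT at 72 bases. The Padi3 window held GGGCGG at 47 bases, CCAAT at 74 bases and the reverse complement of CCAAT, written ATTGG, at 121 bases. CCAAT is present in 33.8% of windows. The Padi1 window matched none of the 7. GC content was 60% for Padi1, 61.6% for Padi2, 56% for Padi3 and 66% for Padi4, against a median of 52.4% over all windows. A match here is only a match of letters, and the missing ones say nothing of binding elsewhere.

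All 4 genes rose in Esr1 WT uteri treated with DES, by 108-fold for Padi1, 161-fold for Padi2, 10.6-fold for Padi3 and 46.8-fold for Padi4. This comparison moved much of the transcriptome: 51.8% of genes were called at an adjusted p under 0.05 with 21.5% called higher and 30.3% called lower, so the sizes of the changes say more than the count of 4 of 4. Among the changes sorted from the largest rise, Padi2 was at position 28, Padi1 at 38, Padi4 at 82 and Padi3 at 303. The median of all genes was -0.16 on the log2 scale here and 0.09 when arrays were scaled by their medians, a shift far below the changes of these 4 genes.

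Padi1, the epidermal PAD, had levels of 6.78, 6.67, 6.45 and 6.33 in the Esr1 WT DES arrays, against -0.22, -0.11, 0.02 and -0.47 in the Esr1 WT vehicle arrays. The difference was 6.75 ± 0.20 on the log2 scale (SE, limma adjusted p = 7.15e-20). Every DES array lay far above every vehicle array. Padi2, the widely distributed PAD, had levels of 5.57, 5.57, 5.24 and 4.98 after DES, against -2.07, -2.09, -2.16 and -1.65 after vehicle. The difference was 7.33 ± 0.26 (limma adjusted p = 2.06e-18), and the highest vehicle value was that of replicate 4, the array that stood apart. Padi3, the hair follicle PAD, had levels of 0.20, -0.47, 0.10 and -0.77 after DES, against -4.10, -4.03, -3.72 and -2.69 after vehicle. Its difference was 3.40 ± 0.34 (limma adjusted p = 2.53e-09), and without the 2 arrays that stood apart it was 3.71. Padi4, the PAD known for histone citrullination, had levels of 4.66, 4.84, 4.39 and 4.42 after DES, against -1.08, -0.78, -0.68 and -1.35 after vehicle. The difference was 5.55 ± 0.22 (limma adjusted p = 1.26e-17). For all 4 genes the arrays of the 2 groups did not overlap, which held for 50.5% of all genes. In whole-uterus RNA, a change in the number of cells of a type and a change in RNA per cell cannot be told apart.

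**Figure D1:**
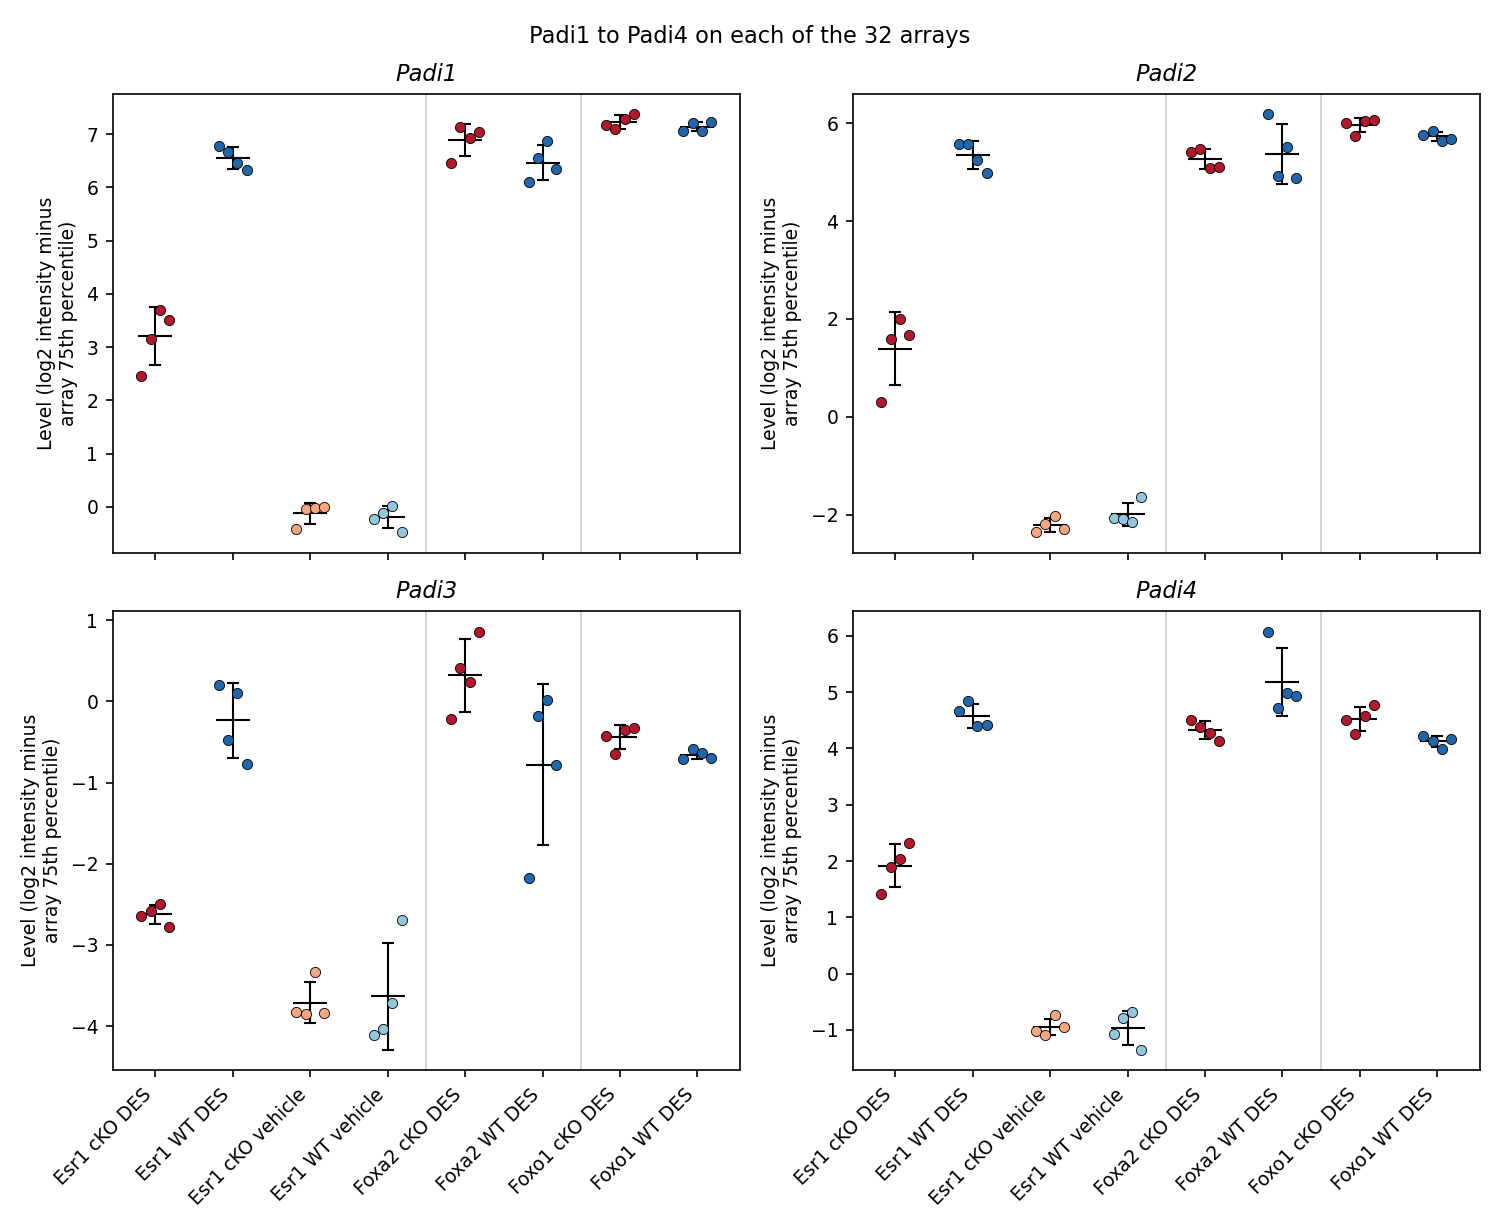
Level of each gene (log2 intensity minus the array's 75th percentile) on every array; each dot is 1 array, the long bar is the mean and the whiskers are 1 SD over 4 arrays. The Esr1 cKO DES arrays lie between the vehicle arrays and all other DES arrays for Padi1, Padi2 and Padi4, while for Padi3 they touch the highest Esr1 WT vehicle array.

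DES also raised all 4 genes in Esr1 cKO uteri, by 10-fold for Padi1, 12.1-fold for Padi2, 2.12-fold for Padi3 and 7.30-fold for Padi4, in a comparison where 8.98% of genes were called and 6.39% were called higher. Padi1 had levels of 2.46, 3.15, 3.71 and 3.51 in Esr1 cKO DES arrays, against -0.41, -0.04, -0.02 and 0.00 in Esr1 cKO vehicle arrays, a difference of 3.32 ± 0.20 (SE, limma adjusted p = 1.62e-12). Padi2 had levels of 0.31, 1.59, 2.00 and 1.67 after DES, against -2.35, -2.18, -2.02 and -2.29 after vehicle, a difference of 3.60 ± 0.26 (limma adjusted p = 7.3e-11). Both genes were raised on all 4 DES arrays, with replicate 1 the lowest. Padi3 had levels of -2.64, -2.58, -2.50 and -2.78 after DES, against -3.83, -3.85, -3.33 and -3.84 after vehicle, a difference of 1.09 ± 0.34 (limma adjusted p = 0.039). Its arrays did not overlap, as for 30.8% of genes, but the call was lost when any of 7 of the 8 arrays was left out (adjusted p up to 0.0964, differences of 1.04 to 1.21), and also when 16 was added to each intensity (0.99, adjusted p = 0.0592). Padi4 had levels of 1.41, 1.90, 2.04 and 2.33 after DES, against -1.02, -1.09, -0.74 and -0.96 after vehicle, a difference of 2.87 ± 0.22 (limma adjusted p = 1.48e-10).

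The response to DES was smaller in Esr1 cKO than in Esr1 WT for all 4 genes by the test of the difference itself, in which 27.3% of genes were called and 11.9% were called lower. The difference between the responses was -3.43 ± 0.29 for Padi1 (SE, limma adjusted p = 1.6e-09), -3.73 ± 0.37 for Padi2 (3.68e-08), -2.31 ± 0.47 for Padi3 (0.00061) and -2.68 ± 0.31 for Padi4 (3.06e-07). Expressed as a share of the log2 response in WT, the cKO response was 49.2% for Padi1, 49.1% for Padi2, 32% for Padi3 and 51.7% for Padi4. Over the 2367 genes called higher and at least 2-fold in Esr1 WT, the median of this share was 25.4%. No test was made of these shares.

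Replicate 1 was the lowest of the 4 Esr1 cKO DES arrays for Padi1, Padi2 and Padi4, and replicate 4 the lowest for Padi3. The same replicate 1 was also lowest for Esr1 itself (0.09, against 0.25 to 0.46 on the other 3), for Foxa2 (-1.93, against -1.39 to -0.90) and for Ltf, which encodes lactotransferrin, a classical estrogen-induced uterine secretory protein (1.34, against 2.35 to 3.67). It was not the lowest for the epithelial keratin Krt8 or the epithelial adhesion gene Epcam. Replicate 2 had the highest Esr1 level of the 4 (0.46). Its Padi1, Padi2 and Padi4 levels (3.15, 1.59 and 1.90) were below those of replicates 3 and 4. Whether the spread among these 4 arrays follows the amount of Esr1 RNA that was left was not tested.

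Without DES the Esr1 genotype made no called difference to any of the 4 genes, in a comparison where 7.48% of genes were called. Esr1 cKO minus WT after vehicle was 0.08 for Padi1 (95% interval -0.34 to 0.50), -0.22 for Padi2 (-0.76 to 0.32), -0.08 for Padi3 (-0.77 to 0.61) and 0.02 for Padi4 (-0.43 to 0.47). The arrays overlapped for each gene, and Esr1 RNA itself also overlapped between the genotypes after vehicle. The widest interval was that of Padi3. After DES the picture was different. Relative to Esr1 WT DES arrays, Esr1 cKO DES arrays had 9.79% of the Padi1 signal, 6.47% of Padi2, 19.1% of Padi3 and 15.8% of Padi4. These correspond to log2 differences of -3.35, -3.95, -2.39 and -2.66, with limma adjusted p-values of 5.81e-13, 4.23e-12, 2.66e-06 and 2.15e-10 in the same order. In this comparison 30.5% of genes were called and 13.9% were called lower. None of the 4 genes overlapped between the genotypes after DES, which held for 47% of genes.

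**Figure D2:**
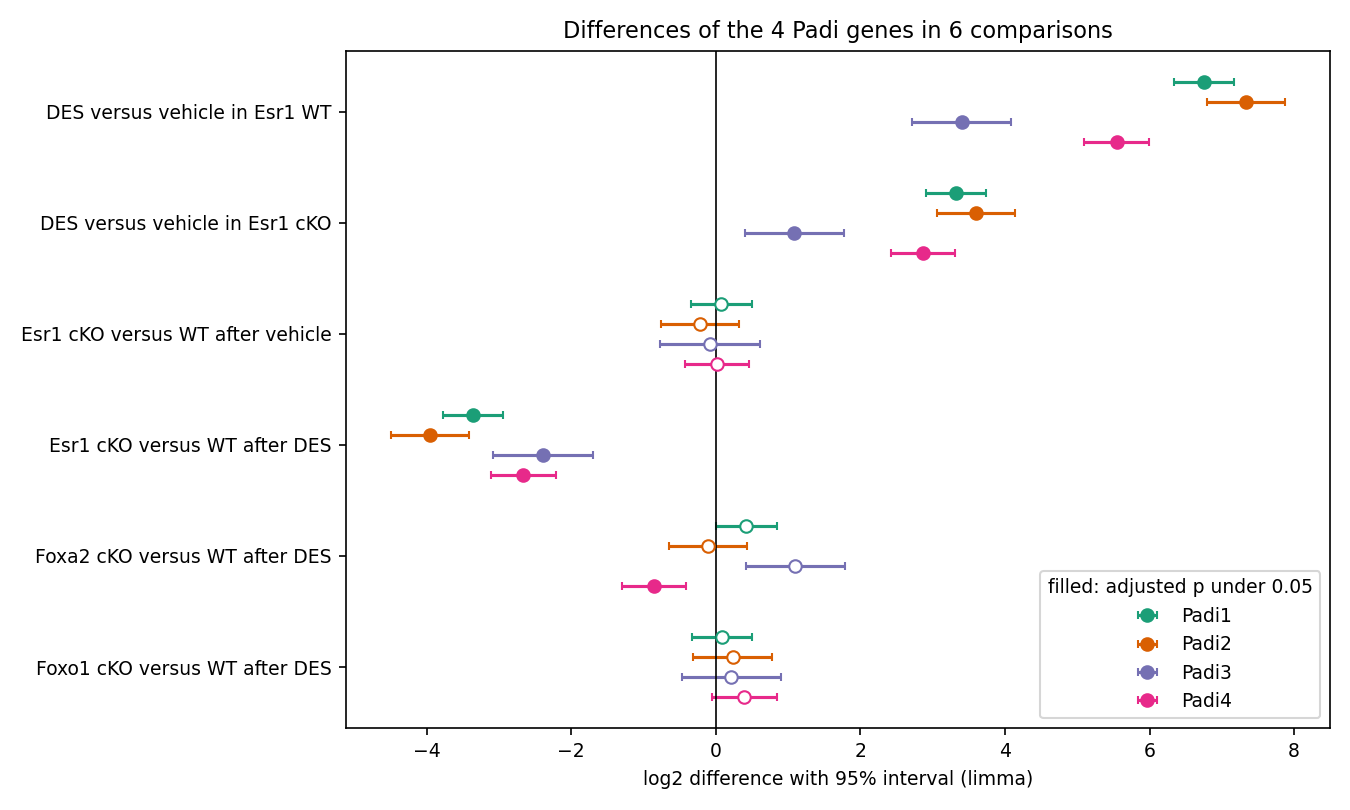
Differences of the 4 genes in 6 comparisons on the log2 scale, with 95% intervals from limma; filled symbols have an adjusted p under 0.05. Both DES responses lie right of 0, and the Esr1 cKO versus WT differences after DES lie left of it. In the other genotype comparisons Padi4 in the Foxa2 line (-0.85) is the only filled symbol; Padi3 in that line (1.10) is open, with an interval of 0.41 to 1.79.

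Deletion of Foxa2 left Padi1 and Padi2 without a called change in DES-treated uteri, and 2.21% of genes were called in this comparison. Padi1 had levels of 6.46, 7.13, 6.93 and 7.05 in Foxa2 cKO, against 6.10, 6.55, 6.87 and 6.35 in Foxa2 WT. The difference of 0.43 ± 0.20 did not pass (SE, limma adjusted p = 0.267), and the arrays overlapped. Padi2 had levels of 5.41, 5.48, 5.08 and 5.11 in Foxa2 cKO, against 6.18, 4.92, 5.52 and 4.88 in Foxa2 WT, with a difference of -0.11 (95% interval -0.65 to 0.44). Padi3 had levels of -0.22, 0.41, 0.24 and 0.86 in Foxa2 cKO, against -2.18, -0.18, 0.01 and -0.78 in Foxa2 WT. Its difference of 1.10 ± 0.34 did not pass (limma adjusted p = 0.0876). The low value of -2.18 is Foxa2 WT replicate 1, the array whose overall intensity stood apart, and without it the Padi3 difference was 0.63 (adjusted p = 0.363). Without Foxa2 WT replicate 2 or 3 it passed, at 1.30 and 1.37 (adjusted p = 0.0333 and 0.0245).

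Padi4 was the only one of the 4 called in the Foxa2 line. It had levels of 4.51, 4.37, 4.28 and 4.13 in Foxa2 cKO, against 6.07, 4.71, 4.99 and 4.93 in Foxa2 WT, and the arrays did not overlap, as for 5.43% of genes. The difference was -0.85 ± 0.22, or 55.3% of the WT signal (limma adjusted p = 0.0337, with 1.1% of genes called lower). The highest value is again Foxa2 WT replicate 1. Without that array the difference was -0.56 (adjusted p = 0.123), and all 4 cKO arrays still lay below the 3 remaining WT arrays. The call was also lost with quantile normalization (-0.50, adjusted p = 0.119), with median scaling (-0.88, 0.0922), with the mean of the 3 Padi4 probes (-0.88, 0.0558), with only the Foxa2 arrays in the fit (0.821), and without Foxa2 cKO replicate 2, 3 or 4. Arrays of the Foxa2 line differ in their brightest spot, and the Padi4 difference was -1.02 among the 3 cKO and 3 WT arrays with a higher maximum, but -0.65 when Foxa2 WT replicate 1 was left out of these. It was -0.34 between the 1 cKO and 1 WT array with a lower maximum, a value with no replicate. On Foxa2 WT replicate 1 the Padi1, Padi2 and Padi4 intensities were 67.2%, 70.9% and 65.7% of the brightest spot on the array, while Padi1 was at 14.9% to 43.8% on the other DES arrays outside Esr1 cKO.

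Deletion of Foxo1 gave no called change in any of the 4 genes, in a comparison where 38 genes, or 0.222%, were called. Foxo1 cKO minus WT was 0.08 for Padi1 (95% interval -0.33 to 0.50), 0.23 for Padi2 (-0.31 to 0.78), 0.22 for Padi3 (-0.47 to 0.90) and 0.40 for Padi4 (-0.05 to 0.84), each with a limma adjusted p of 1. Padi1 had levels of 7.16, 7.09, 7.29 and 7.37 in Foxo1 cKO, against 7.07, 7.22, 7.07 and 7.22 in Foxo1 WT, and Padi2 had 6.0, 5.74, 6.04 and 6.07 against 5.77, 5.84, 5.64 and 5.67. Padi3 had -0.42, -0.65, -0.36 and -0.33 in Foxo1 cKO, against -0.71, -0.59, -0.63 and -0.70 in Foxo1 WT. These 3 genes overlapped between the genotypes. Padi4 had levels of 4.50, 4.26, 4.57 and 4.78 in Foxo1 cKO, against 4.22, 4.14, 3.99 and 4.17 in Foxo1 WT. Its arrays did not overlap, which held for 8.09% of genes in this comparison. The same-numbered Foxo1 arrays deviated together, and with the replicate number as a block within these 8 arrays the Padi4 difference kept its size and had an adjusted p of 0.2, while the number of genes called fell to 7, against 38 without the block.

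The deletions differed in their effect on these genes when the differences were tested directly. The effect of Esr1 deletion minus that of Foxa2 deletion was -3.78 for Padi1, -3.85 for Padi2, -3.49 for Padi3 and -1.81 for Padi4, with limma adjusted p-values of 3.25e-10, 2.17e-08, 4.36e-06 and 9.34e-05; 18.4% of genes were called. The effect of Esr1 deletion minus that of Foxo1 deletion was -3.44, -4.18, -2.60 and -3.06 for Padi1 to Padi4, with adjusted p-values of 1.02e-09, 3.17e-09, 0.000183 and 2.7e-08; 19.6% were called. All 8 differences kept their calls under every alternative that was run. Between the Foxo1 and Foxa2 deletions, where 0.957% of genes were called, Padi4 alone of the 4 was called, with a difference of 1.25 ± 0.31 (limma adjusted p = 0.0423). That call was lost under 6 alternatives and without any of 10 of the 16 arrays.

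The order of the levels over the 8 groups was similar for the 4 genes at its lower end. The vehicle groups were lowest, the Esr1 cKO DES group came next, and the 5 other DES groups were highest. Esr1 cKO DES arrays did not overlap with any of the 5 other DES groups for any of the 4 genes. They did not overlap with vehicle arrays for Padi1, Padi2 and Padi4, whereas for Padi3 the highest Esr1 WT vehicle array, at -2.69 on the array that stood apart, lay within the range of -2.78 to -2.50 of the Esr1 cKO DES arrays. Among the 5 highest groups every neighbour in the order overlapped the next for each gene. Padi1 and Padi2 were highest in Foxo1 cKO (7.23 ± 0.13 and 5.96 ± 0.15, SD, n = 4), Padi3 in Foxa2 cKO (0.32 ± 0.45) and Padi4 in Foxa2 WT (5.18 ± 0.61).

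Among the WT groups of the 3 lines after DES, Padi2 and Padi3 showed no called difference. Padi1 was higher in Foxo1 WT than in Esr1 WT by 0.58 ± 0.20 (SE, limma adjusted p = 0.0261, with 35.2% of genes called) and than in Foxa2 WT by 0.68 ± 0.20 (adjusted p = 0.0232, with 16.5% called). Padi4 was lower in Foxo1 WT than in Foxa2 WT with a difference of -1.05 ± 0.22 (adjusted p = 0.00136). It was higher in Foxa2 WT than in Esr1 WT by 0.60 ± 0.22 (adjusted p = 0.0338, with 35.3% called), but by 0.30 without Foxa2 WT replicate 1 (adjusted p = 0.176). These calls between lines depended on the processing, and of the 4 only Padi4 between Foxo1 WT and Foxa2 WT held when any array was left out. Line cannot be told apart from anything else that differed between the lines.

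The 3 Padi4 probes are separate measurements of the gene. The first represents Padi4 above, the second rose by 5.90 ± 0.25 in Esr1 WT and 2.73 ± 0.25 in Esr1 cKO (SE, log2), and differed by -2.79 between Esr1 cKO and WT after DES. The second probe also gave a called Foxa2 difference of -1.08 (limma adjusted p = 0.0213). The third lay below the 30th percentile of intensity on all 8 vehicle arrays, so its rise is a bound against that percentile. It was at least 24.4-fold higher after DES in Esr1 WT and at least 4.17-fold higher in Esr1 cKO. Its Foxa2 difference of -0.70 was not called (limma adjusted p = 0.26). All 3 probes therefore had their lowest DES values in Esr1 cKO.

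**Figure D3:**
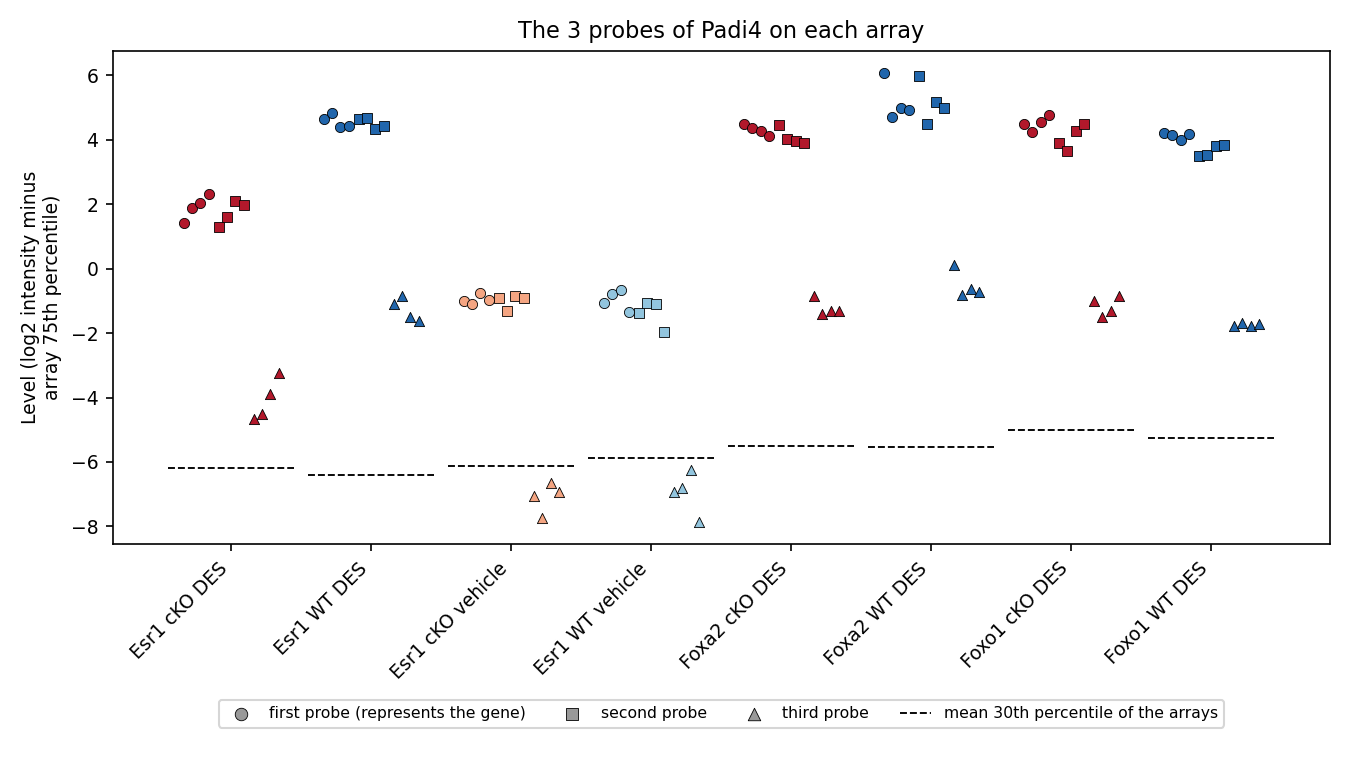
Levels of the 3 Padi4 probes (log2 intensity minus the array's 75th percentile) on every array, with a marker shape for each probe and 1 marker per array; dashed lines are the mean 30th percentile of the arrays of a group. The third probe lies under that line in both vehicle groups, and all 3 probes are lower in Esr1 cKO than in Esr1 WT after DES.

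The deiminase row was set beside Padi6 and the 5 protein-coding genes on each side of it. Padi6 was dim: it lay below the 30th percentile on all 4 Esr1 WT vehicle arrays and was at least 1.88-fold higher in Esr1 WT DES arrays (levels of -5.13 to -4.69, limma adjusted p = 4.11e-05). In Esr1 cKO its levels were -6.41 to -4.15 after DES and -5.55 to -5.38 after vehicle, with a difference of 0.00. Of the 10 flanking genes, Klhdc7a rose in Esr1 WT by 3.04 and in Esr1 cKO by 1.83 (limma adjusted p = 2e-10 in WT), and Sdhb, a subunit of succinate dehydrogenase, rose in WT by 1.11. Atp13a2, Crocc and Necap2 rose by 0.49 to 0.79 in WT. Rcc2 and Igsf21 fell by 1.27 and 1.65, Pax7 was lower and below the 30th percentile on all 4 DES arrays, and Arhgef10l and Mfap2 were not called. In Esr1 cKO, 1 of the 10 flanking genes, Klhdc7a, was called after DES, a share close to the 8.98% of all genes.

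**Figure D4:**
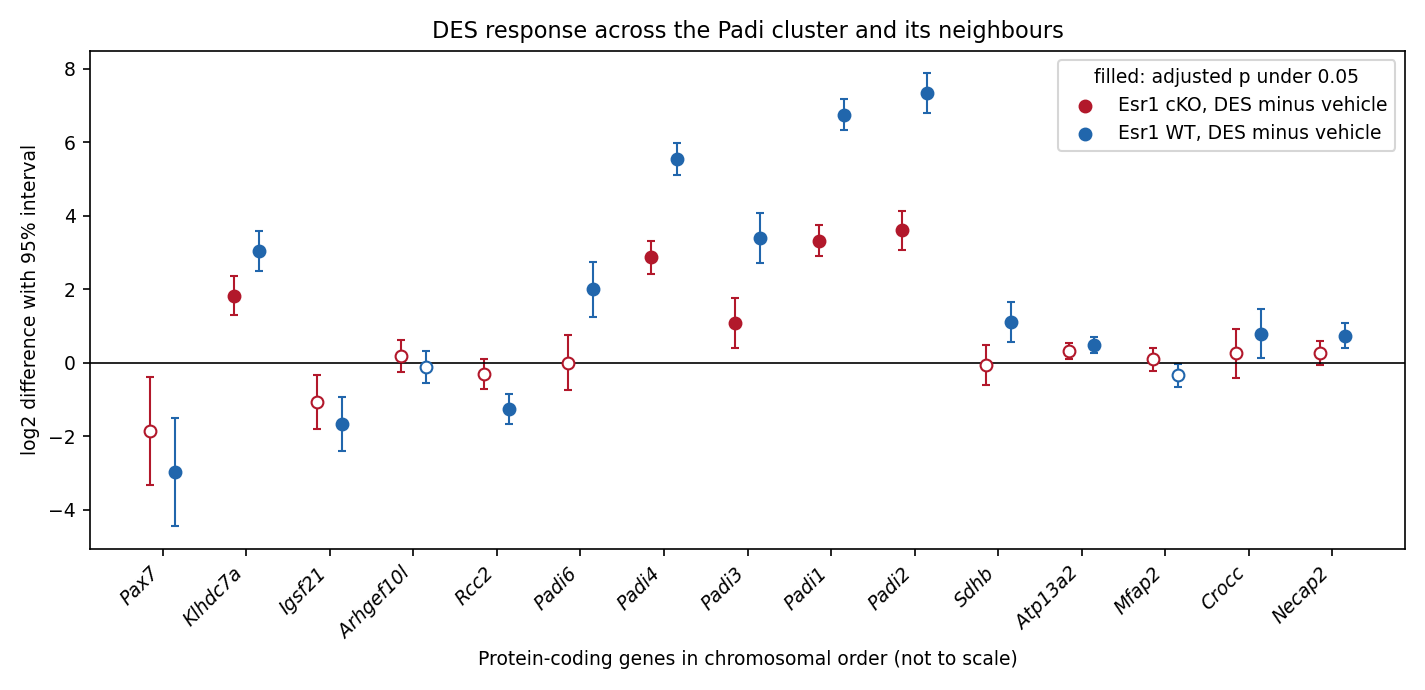
Response to DES on the log2 scale, with 95% intervals from limma, for Padi6, the 4 genes and 5 protein-coding neighbours on each side, in chromosomal order and not to scale; filled symbols have an adjusted p under 0.05. Padi4, Padi1 and Padi2 have the largest responses in both genotypes; the points of Padi6 and Pax7 in Esr1 WT rest on dim arrays and show fitted values.

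Over the 32 arrays, Padi1 and Padi2 had a Pearson correlation of 0.994, Padi2 and Padi4 of 0.984 and Padi1 and Padi4 of 0.975, and Padi3 correlated with the others at 0.891 to 0.938. These values describe mainly the gap between vehicle and DES arrays, which all of these genes share. The genes most like Padi1 were Cfb (complement factor B, 0.994), Ltf, Stc2 (stanniocalcin), Kcnn4 (a potassium channel) and Klf4. Padi2 was most like Ckmt1 (mitochondrial creatine kinase, 0.994), Sftpd (surfactant protein D), Stc2, Cfb and Slc28a3 (a nucleoside transporter). Padi3 was most like Tinagl1 and Tgm2 (transglutaminase, 0.969), then Tmem40, Ccdc65 and Kyat1. Padi4 was most like Oit1 (0.995), Chst8 (a carbohydrate sulfotransferase), Slc44a4, Atp2c2 (a calcium and manganese pump) and Ifne (an epithelial interferon).

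The counts for genes that act with the deiminases are read against all genes in Esr1 WT, of which 21.5% were called higher and 30.3% lower after DES. Of 21 listed PAD substrate proteins 16 were measured, and after DES in Esr1 WT 1 rose, 5 fell and 10 were not called, with a median of -0.12 beside -0.16 over all genes. Without Esr1 WT vehicle replicate 4, the array that stood apart, 3 rose and 7 fell, and 27.4% of all genes were then called higher and 35.8% lower. These shares are near those of all genes. Mbp, encoding the PAD2 substrate myelin basic protein, rose by 1.5 ± 0.24 (SE, limma adjusted p = 1.04e-05), and E2f1, a cell-cycle factor reported as a PAD4 substrate, fell by 1.79 ± 0.27 (4.44e-06). Fgb, a fibrinogen chain, was called lower but lay below the 30th percentile on 3 of 4 Esr1 WT DES arrays and on 2 of 4 vehicle arrays. Gfap, an intermediate filament gene below the 30th percentile on all Esr1 WT DES arrays, was at least 1.71-fold lower. Trichohyalin, the PAD3 substrate of the hair follicle, had a difference of 0.00 at Tchh and was not called. In Esr1 cKO none of the 16 was called after DES. Of the 9 arginine methyltransferases, which modify the same residue, 0 rose and 3 fell in Esr1 WT, close to the share of all genes called lower. The 3 were Prmt3 by 0.50, Prmt5 by 0.48 and Prmt8, which was below the 30th percentile in both groups. Without the array that stood apart 1 rose and 5 fell, beside 27.4% and 35.8% of all genes. Prmt1 and Carm1 were then also called lower. Of 11 measured transcription factors reported at Padi promoters, 2 rose and 5 fell in Esr1 WT after DES, beside the same 21.5% and 30.3% of all genes. Fos, a component of AP-1, rose by 4.11 ± 0.27 (limma adjusted p = 5.82e-13) and Pgr, the progesterone receptor, by 0.87 ± 0.16. Nfyb and Esr1 itself fell by 1.12 and 1.06, but by 0.72 and 0.69 without the array that stood apart. Sp1 and Jun also fell, and the call of Esr2, below the 30th percentile on 3 of 4 Esr1 WT DES arrays, was lost without that array (adjusted p = 0.055). Mzf1 and Sp3 were then called lower, at -0.67 and -0.37. The counts without that array were 2 rises and 6 falls, beside 27.4% and 35.8% of all genes. After DES, Fos and Pgr were lower in Esr1 cKO than in WT, with differences of -2.47 and -1.40.

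Markers of cell types in which deiminases are known moved with some of these changes. Of 9 simple epithelium markers 8 rose after DES in Esr1 WT, where 21.5% of all genes were called higher, with a median of 1.37 beside -0.16 over all genes, led by Elf3 (3.87), Krt19 (1.72) and Cdh1 (1.69). Their summed level, in multiples of the array's 75th percentile, was 295 to 354 in Esr1 WT DES arrays against 134 to 223 in Esr1 WT vehicle arrays. In Esr1 cKO it was 169 to 230 after DES against 128 to 136 after vehicle, with 3 of 9 called higher beside 6.39% of all genes, and 6 of 9 were lower in Esr1 cKO than in WT after DES beside 13.9% of all genes. Against the same shares of all genes called higher, macrophage markers rose in 5 of 5 cases in Esr1 WT and 4 of 5 in Esr1 cKO, with summed levels of 29.3 to 38.5 in Esr1 WT DES arrays against 11.1 to 14.7 in Esr1 WT vehicle arrays. The part of these cell types in the rise of the 4 deiminases was not tested.

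For the granulocyte markers, of which 14 of 17 were measured, 5 rose and 0 fell in Esr1 WT after DES, beside 21.5% and 30.3% of all genes, with a median of 1.09. Without Esr1 WT vehicle replicate 4, 7 rose and 0 fell, beside 27.4% and 35.8% of all genes. Itgam rose by 6.50 ± 0.46, Fpr2 was at least 2.24-fold higher and Retnlg rose by 1.70 ± 0.49. The other markers called higher, Csf3r and Ptprc, rose by 1.26 and 1.01, so Itgam was far above the rest. The granule genes Mpo, Prtn3, Ctsg, Ngp and Camp, which define neutrophil precursors, had no called change with or without that array. S100a8 and S100a9, calcium-binding proteins abundant in neutrophils, were not called at 1.19 and 1.20, but rose by 1.53 and 1.73 without it (limma adjusted p = 0.013 and 0.00483). The summed level was 8.94 to 14.0 in Esr1 WT DES arrays against 2.33 to 8.16 in Esr1 WT vehicle arrays, the highest vehicle value being replicate 4. In Esr1 cKO it was 2.70 to 8.07 after DES against 2.26 to 2.89 after vehicle. There 4 of 14 were called higher and 0 lower, with a median of 1.00, beside 6.39% of all genes called higher. The median summed level after DES was 5.71 in Foxo1 WT, 6.51 in Foxo1 cKO, 13.3 in Foxa2 WT and 13.6 in Foxa2 cKO. The part of granulocytes in the rise of Padi4 was not tested. Cornifying epithelium markers, the setting of PAD1 and PAD3 in skin, moved the other way in Esr1 WT: of 11 measured, 2 rose and 7 fell, with a median of -1.25 and with 30.3% of all genes called lower. Trp63, the basal epithelial factor, fell by 3.68 ± 0.28, the largest change on that list, and Klk7 and Casp14 rose by 1.40 and 1.45. Some of these calls rest on dim arrays. Of 4 Esr1 WT DES arrays, Ivl lay below the 30th percentile on 3, Tgm3 and Cdsn on 2 and Trp63 on 1. Ivl and Casp14 also lay below it on 2 of 4 Esr1 WT vehicle arrays. Stroma and smooth muscle markers, of which all 11 were measured, had 1 rise and 7 falls with a median of -0.72, against the same shares of all genes. Without Esr1 WT vehicle replicate 4 they had 2 rises and 7 falls, as Dcn was then called higher, at 0.43. Of 7 measured oocyte and ovary markers, 2 rose and 2 fell. The rises were Ddx4, a germ cell helicase, by 6.64 ± 0.38 and Zp1, a zona pellucida gene, by 2.33 ± 0.32. Zp1 lay below the 30th percentile on 3 of 4 Esr1 WT vehicle arrays. Gdf9 and Foxl2 were called lower, with differences of -1.02 and -1.25. Zp2, Zp3 and Amh were not called, and the median of the list was 0.09. In the Foxa2 comparison, where 2.21% of all genes were called, 1 of 11 cornifying epithelium markers was called higher and none of the 14 granulocyte, 9 simple epithelium and 5 macrophage markers was called; so few calls are near the share of all genes.

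**Figure D5:**
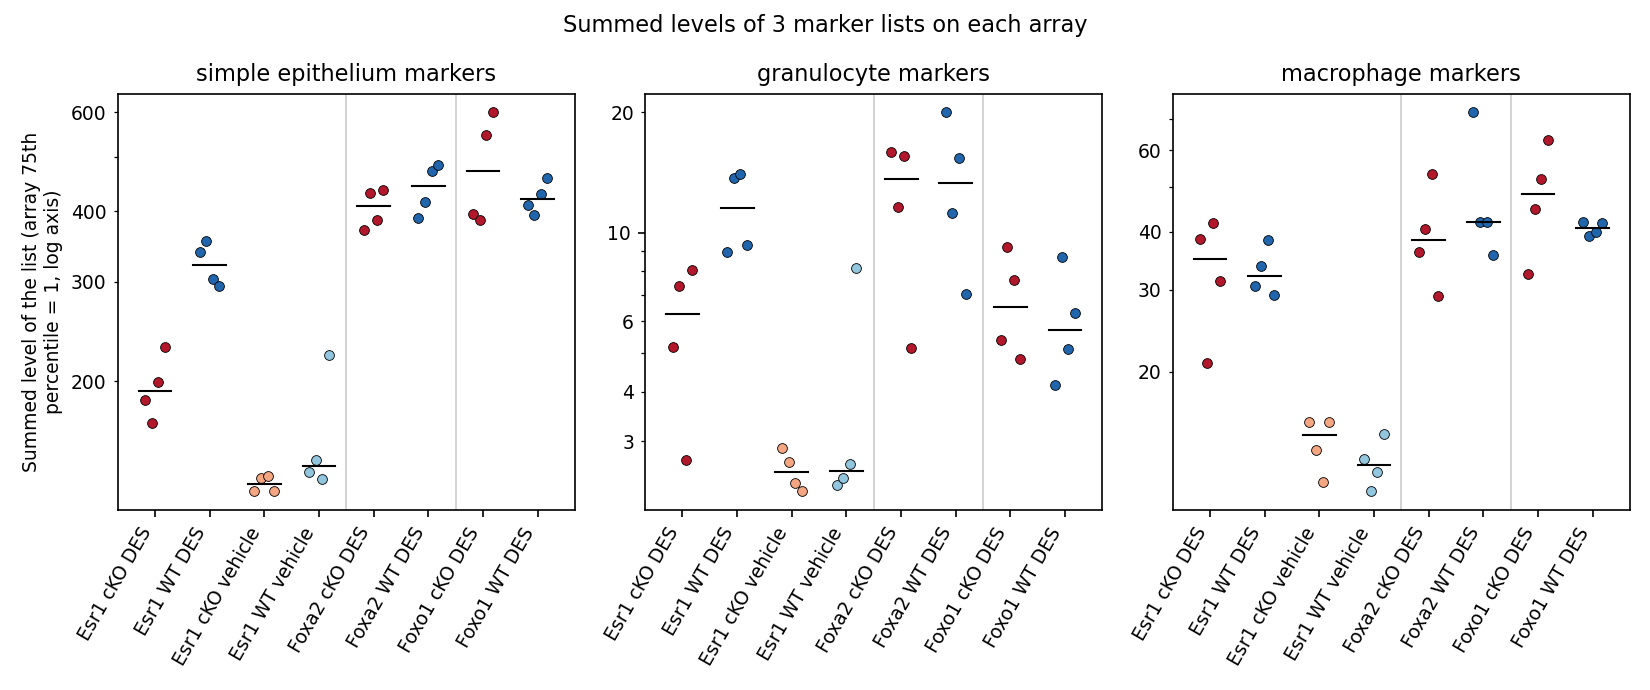
Summed level of 3 marker lists on every array, in multiples of the array's 75th percentile and on a log axis; each dot is 1 array and each bar the median of 4. Simple epithelium and macrophage markers are higher after DES than after vehicle in the Esr1 line, and simple epithelium markers are lower in Esr1 cKO DES arrays (169 to 230) than in Esr1 WT DES arrays (295 to 354).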

How the data were processed

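RNA from 32 samples of whole mouse uteri was labelled with Cy3 and hybridised to 1-colour Agilent arrays. Intensities were extracted with Agilent Feature Extraction version 12, per the submitters' processing notes. The authors deposited 1 linear intensity per probe and array; no source used here states background handling or detection flags. Each intensity was taken to log2 and the array's 75th percentile was subtracted. Of 45018 probes, 33653 had 1 gene symbol, 56 several and 11309 none in the platform annotation. For 33517 probes with 1 symbol the current symbol was taken by gene ID, whether or not it differed. Probes above their array's 30th percentile on at least 4 of 32 arrays were kept (36657), and the brightest kept probe on average represented a gene, giving 17145 genes. A percentile stands in for a background measure, so a dim probe has only a bound.

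Group means of all 8 groups were fitted in limma 3.58.1 (R 4.3.3; 24 residual degrees of freedom) with lmFit and eBayes, and p-values were adjusted by Benjamini-Hochberg over all genes within each of 13 comparisons, called under 0.05. The procedure was tested on simulated data. Named were the 4 members and their probes, Padi6, 5 neighbours on each side, the targeted genes, the 5 genes most correlated with each member, and up to 3 called genes per list in a comparison; further list genes were named after their values were seen. The members and lists were chosen with earlier results of these data known. Same-numbered arrays deviated together in all 4 pairs only in the Foxo1 line (r = 0.29 to 0.38). In the Foxa2 line r ran from 0.00 to 0.46, and every other comparison also had at least 1 pair at or below 0.02. Alternatives changed the scaling, the filter, an offset, the probe of a gene, the arrays in the fit, array weights, the replicate block and each array. Sequences came from RefSeq (GRCm38.p6), and the files name no build. Figures were drawn with matplotlib 3.10.9 in Python 3.11.15, and tables were read with pandas 2.3.3.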

Additional observations from a re-analysis of the deposited data

Results flagged for a closer look

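In 3 of 32 sets of 4 arrays, 1 array stood apart from the other 3, measured as its gap to the nearest array divided by the whole range of the set; chance gives about 1 in 20. Padi1 in Esr1 cKO vehicle replicate 1 was low at -0.41 (ratio 0.913). Padi2 in Esr1 WT vehicle replicate 4 was high at -1.65 (ratio 0.833), on the array that also stood apart at Xist. Padi3 in Esr1 cKO vehicle replicate 3 was high at -3.33 (ratio 0.972).

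The response to DES differed between Esr1 cKO and WT by -3.43 for Padi1, -3.73 for Padi2, -2.31 for Padi3 and -2.68 for Padi4 on the log2 scale. The effect of Esr1 deletion differed from that of Foxa2 deletion by -3.78, -3.85, -3.49 and -1.81 for Padi1 to Padi4, and from that of Foxo1 deletion by -3.44, -4.18, -2.60 and -3.06. All 12 were called by the limma test of the difference. Foxo1 deletion differed from Foxa2 deletion at Padi4 by 1.25 (limma adjusted p = 0.0423).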

How the results depend on the processing

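The 52 member results gave 1080 recomputed values, of which 67 crossed the threshold. Of the values called in the main fit or in the alternative, 0 changed direction. Uncalled differences did change sign, such as Padi2 in Foxa2 cKO against WT, from -0.11 to as high as 0.30. All 4 genes kept their calls under every alternative for the DES response in Esr1 WT, its difference from Esr1 cKO, Esr1 cKO against WT after DES, and Esr1 deletion against the other deletions. The calls that moved were in the other comparisons, with sizes up to 1.37 on the log2 scale among the values that crossed; their causes were not tested. With quantile normalization, Padi4 was -0.50 (adjusted p = 0.119) for Foxa2 cKO against WT, 0.83 (0.0915) for Foxo1 against Foxa2 deletion, 0.044 (0.872) for Foxa2 WT minus Esr1 WT and -0.64 (0.00425) for Foxo1 WT minus Esr1 WT, while Padi1 was -0.73 (0.039) for Foxa2 WT minus Esr1 WT and 0.21 (0.572) for Foxo1 WT minus Esr1 WT. With median scaling, in the same order, Padi4 was -0.88, 1.13 and 0.50 in the first 3, and Padi1 was 0.39 for Foxo1 WT minus Esr1 WT and 0.58 for Foxo1 WT minus Foxa2 WT, none called. Adding 16 gave Padi3 0.99 (0.0592) for DES in Esr1 cKO. Padi4 for Foxo1 against Foxa2 deletion was 1.25 (0.0508) without a filter and 1.34 (0.0585) with the mean of probes, which gave -0.88 (0.0558) for Foxa2 cKO against WT. With only the compared groups in the fit, Padi4 was -0.85 (0.821) for Foxa2 cKO against WT, 1.25 (0.173) for Foxo1 against Foxa2 deletion, 0.60 (0.24) for Foxa2 WT minus Esr1 WT, -0.45 (0.012) for Foxo1 WT minus Esr1 WT and -1.05 (0.116) for Foxo1 WT minus Foxa2 WT; Padi2 was 0.39 (0.0459) for Foxo1 WT minus Esr1 WT and Padi1 0.68 (0.119) for Foxo1 WT minus Foxa2 WT. Array weights added calls: Foxa2 cKO against WT for Padi1 at 0.57 and Padi3 at 1.09, Foxo1 against Foxa2 deletion for Padi3 at -0.91, Foxa2 WT minus Esr1 WT for Padi3 at -0.48, Foxo1 WT minus Esr1 WT for Padi3 at -0.44 and Padi4 at -0.44, and Foxo1 WT minus Foxa2 WT for Padi2 at 0.80. The replicate block left Padi4 for Foxo1 against Foxa2 deletion at 1.25 (0.066) and changed no other member's call. Chosen after seeing the data, leaving out both arrays that stood apart gave Padi4 -0.56 (0.059) for Foxa2 cKO against WT and 0.30 (0.128) for Foxa2 WT minus Esr1 WT, and Padi1 0.55 (0.058) for Foxo1 WT minus Foxa2 WT; a term for array brightness gave Padi1 0.57 (0.0521) for Foxo1 WT minus Esr1 WT.

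With 1 array left out at a time, the ranges of results whose call changed were 1.04 to 1.21 for Padi3 and DES in Esr1 cKO, 0.63 to 1.37 for Padi3 and -1.01 to -0.56 for Padi4 in Foxa2 cKO against WT, 0.95 to 1.40 for Padi4 in Foxo1 against Foxa2 deletion, 0.30 to 0.75 for Padi4 in Foxa2 WT minus Esr1 WT, 0.51 to 0.66 for Padi1 in Foxo1 WT minus Esr1 WT and 0.55 to 0.81 for Padi1 in Foxo1 WT minus Foxa2 WT. Counts over all genes ran from 7301 to 11151 for DES in Esr1 WT (main 8876), 1154 to 5487 for DES in Esr1 cKO (1539), 3589 to 8377 for the difference of these (4687), 330 to 2114 for Esr1 cKO against WT after vehicle (1282) and 4344 to 8986 after DES (5224), 9 to 2918 for Foxa2 (379) and 7 to 419 for Foxo1 (38). They ran from 2393 to 7472 for Esr1 against Foxa2 deletion (3162), 2894 to 7248 for Esr1 against Foxo1 deletion (3365), 80 to 1987 for Foxo1 against Foxa2 deletion (164), 1924 to 10012 for Foxa2 WT minus Esr1 WT (6048), 4081 to 10412 for Foxo1 WT minus Esr1 WT (6029) and 550 to 8398 for Foxo1 WT minus Foxa2 WT (2832). The highest counts came with array weights. Groups of 4 arrays limit the precision, and low signals such as those of Padi3 and the third Padi4 probe are limited by background that the files do not give.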
